A study of Drosophila melanogaster with 16 samples.

Results

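Loss of the small GTPase gene cdc42 was compared with loss of the basolateral polarity gene scrib in Drosophila eye-antennal disc tumours that carry the same oncogene, an activated Ras (RasV12). The comparison sets 8 of the 16 arrays of the study against each other, 4 of RasV12cdc42- tumours and 4 of RasV12scrib- tumours, taken by their labels and written below as RasV12 cdc42 and RasV12 scrib. The other 8, 4 of RasV12baz- tumours and 4 of scrib- tumours with a gain-of-function Raf in place of RasV12 (RasV12 baz and RafGOF scrib below), have the same age and entered the shared estimate of the spread between replicates. Tumours had grown from mutant clones in the disc, the larval epithelium from which the adult eye and antenna form, in larvae raised at 25 °C. They were dissected at day 10 after egg laying, 30 to 40 discs to an RNA sample. Each array gave the log2 ratio of tumour RNA to reference RNA from wild-type discs of day 5 to 6 for 11196 features. Tumour age, oncogene and the kind of reference were thus common to RasV12 cdc42 and RasV12 scrib, while each differed from the reference in age as well as in genotype. The sources used here do not say how the clones were made or what share of a disc they filled, so unmutated disc cells may be among those sampled.

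Scrib is a scaffold protein of the basolateral membrane that keeps apical proteins out of that domain. Cdc42 is a small GTPase that acts on the apical side, where it binds Par-6 and activates the kinase aPKC, and it also drives actin assembly. Ras signals through Raf and the MAP kinase cascade to growth and survival, and in fly discs an activated Ras together with loss of polarity gives large invasive tumours. The comparison asks how expression differs when the same oncogene is joined to the loss of one polarity regulator or of the other.

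A positive ratio is read as higher in the tumour. The labels give the tumour as the first channel of every array, which makes this direction likely, but no source used here states it, and every higher and lower would change places if it were reversed. Of the 11196 features, 71 could be given 1 gene symbol and the others carry an identifier alone. No feature was named for Ras85D, scrib or Cdc42, so the engineered genes could not be checked by name. None of 11 eye-antennal disc markers was matched to a feature either. Of the markers of other tissues, Lsp2 of the fat body and betaTub85D and Mst98Ca of the testis were matched, and none of those for haemocytes, muscle, neurons or salivary gland. These are bulk samples, in which fewer cells of a type and less RNA per cell cannot be told apart.

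In each genotype, replicates 1 and 2 resembled each other and so did replicates 3 and 4. Across features, the correlation within these pairs of arrays was 0.77 and 0.81 for RasV12 scrib, and for RasV12 cdc42 it was 0.80 and 0.81. Between the pairs of a genotype it ran from 0.45 to 0.51 and from 0.20 to 0.44. The labels do not say what replicates of a pair share. In RasV12 cdc42 the first pair is also the dye-swapped one, whereas in RasV12 scrib replicates 1 and 3 were swapped. Dye and replicate pair therefore cannot be told apart within RasV12 cdc42. Ratios were more widely spread in RasV12 scrib (SD over features 0.74 to 0.79 on its 4 arrays) than in RasV12 cdc42 (0.51 to 0.65).

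Between RasV12 cdc42 and RasV12 scrib 393 features passed the threshold, which is 3.51% of those tested. Of these, 296 (2.64%) were higher and 97 (0.866%) lower in RasV12 cdc42 (limma, Benjamini-Hochberg adjusted p under 0.05, n = 4 each). The difference was at least 2-fold for 351 of them and at least 4-fold for 51, of which 37 were higher and 14 lower. It reached 8-fold for 10. The smallest difference that passed was 0.76 on the log2 scale. For 358 of the 393 the 4 arrays of one genotype did not overlap the 4 of the other, and 8.80% of all features had no such overlap. Quantile normalization gave 169 higher and 101 lower features and moved the median difference over all features from 0.09 to -0.01. Scaling the arrays to equal spread left 132 features, and random blocks for replicates 1-2 and 3-4 left 52, all 52 among the 393. Without RasV12 cdc42 replicate 2, 3 or 4 the count was 252, 228 or 227.

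On the deposited scale, 327 of the 393 features (83.2%) lay farther from the wild-type reference in RasV12 scrib than in RasV12 cdc42, as did 59.7% of all features. With every array scaled to equal spread, it was 325 of the same 393 features (82.7%), which had been chosen on the deposited scale. Of the 132 features that passed under equal spread, it was 76 (57.6%). That is close to the 57.4% of all features under the same scaling. The share thus depended on which set of features was taken. Among the 296 features higher in RasV12 cdc42, the median log2 ratio of the means was -1.21 in RasV12 scrib and 0.09 in RasV12 cdc42. Of these 296, 140 lay below the reference in RasV12 scrib and above it in RasV12 cdc42, 134 lay below it in both and 22 above it in both. Among the 97 lower features the medians were 1.80 and 0.27. In this group 67 lay above the reference in both genotypes, 28 above it in RasV12 scrib and below it in RasV12 cdc42, and 2 below it in both. With every array centred on its median, 120 of the 296 and 32 of the 97 had means on opposite sides of 0.

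In the tests against the reference 22.1% of all features passed in RasV12 scrib and 8.14% in RasV12 cdc42. These tests were run on the deposited scale, where ratios were more widely spread in RasV12 scrib, and were not repeated with equal spread. Of the 296 higher features, 188 differed from the reference in RasV12 scrib alone by this test, 40 in RasV12 cdc42 alone, 67 in both and 1 in neither. Of the 97 lower features the numbers were 67, 5, 25 and 0. A feature past the threshold against the reference in both genotypes but with opposite sign was rare, at 19 (0.170% of all features). In 15 of them RasV12 cdc42 was the higher one and in 4 RasV12 scrib. Of the genes with a symbol, Idgf3 was among the 15. At the low end, 25 features had a mean log2 ratio below -3 in RasV12 scrib and 0 in RasV12 cdc42, and above 3 the numbers were 26 and 12.

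**Figure D1:**
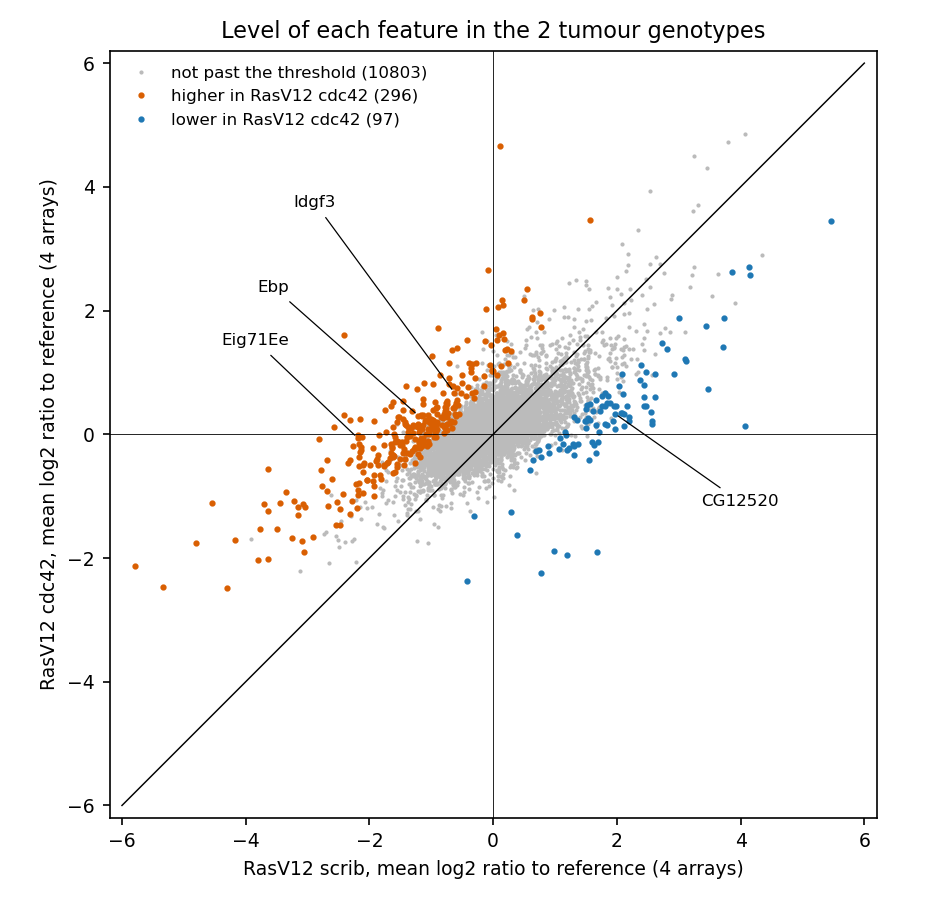
Mean log2 ratio to the wild-type reference over 4 arrays in RasV12 scrib (x axis) and RasV12 cdc42 (y axis), 1 point per feature, with the line of equal level. The 296 orange features lie above the line mostly on the left, where RasV12 scrib is below the reference, and the 97 blue ones below it mostly on the right; the 4 genes with a symbol that passed the threshold are named.

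The other tumour genotypes did not enter either mean. The product of baz, Bazooka, is an apical polarity scaffold. For the 296 features higher in RasV12 cdc42, the median was -0.10 in RasV12 baz and -0.22 in RafGOF scrib, set against -1.21 in RasV12 scrib and 0.09 in RasV12 cdc42. For the 97 lower features, the medians were 0.98 in RasV12 baz and 0.60 in RafGOF scrib, against 1.80 and 0.27. The features were chosen by the difference between RasV12 scrib and RasV12 cdc42, which fixes the order of these genotypes. The others entered the choice through the shared estimate of spread, and nothing about their place was tested. Neither RasV12 baz nor RafGOF scrib had a dye-swapped array, and whether all arrays used the same reference RNA is not stated.

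**Figure D2:**
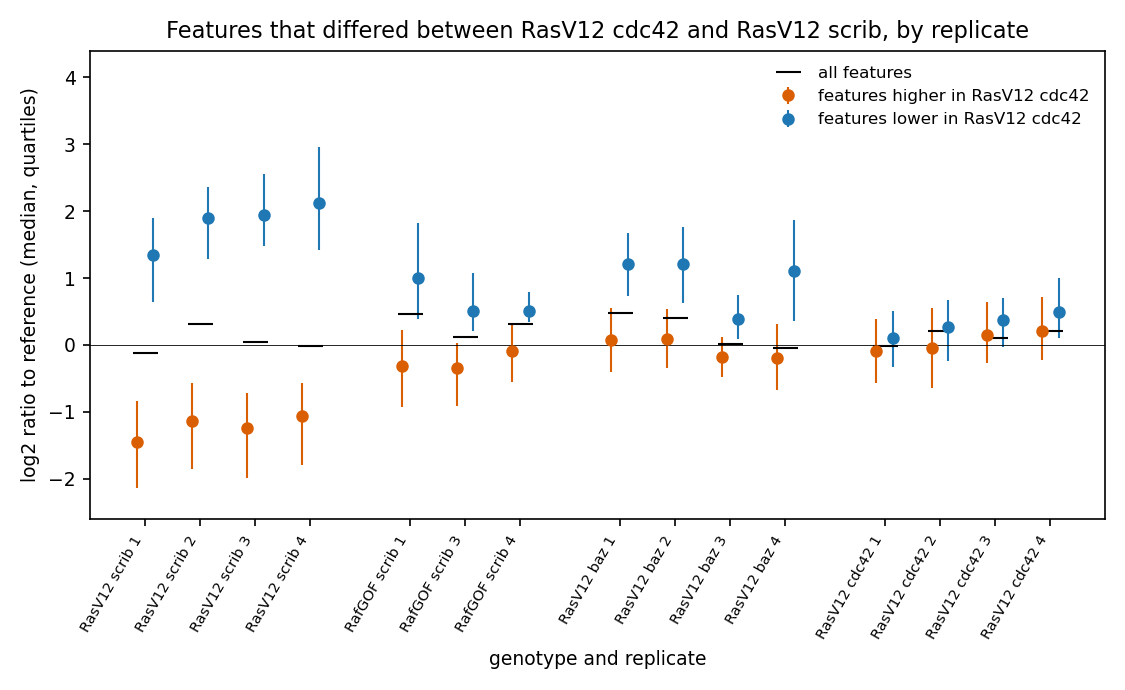
Median log2 ratio to the reference (points) with quartiles (bars) on each replicate, for the 296 features higher in RasV12 cdc42 (orange) and the 97 lower (blue), with the median of all features as a black dash; RafGOF scrib 1 is the mean of replicates 1 and 2. The medians of the 296 were -1.46 to -1.07 on the RasV12 scrib arrays and -0.34 to 0.21 on all others. The features were chosen by the difference between RasV12 scrib and RasV12 cdc42. The arrays drawn between these entered the choice through the shared estimate of spread and not through the difference.

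Among features without a symbol, FBgn0035193 and FBgn0000071 were the 2 with the largest difference upwards. FBgn0035193 had log2 ratios of -0.10, -0.18, 0.60 and 0.13 on the 4 RasV12 scrib arrays and 4.63, 4.65, 4.39 and 5.00 on the 4 RasV12 cdc42 arrays. It stood near the reference in one genotype and far above it in the other, 23.5-fold apart (4.55 ± 0.35 on the log2 scale, SE, limma adjusted p = 5.11e-07). Its level was 5.00 ± 0.84 (SD, n = 4) in RasV12 baz and 1.61 ± 0.49 (SD, n = 3) in RafGOF scrib. FBgn0000071 was below the reference on every RasV12 scrib array (-1.91, -3.06, -2.74 and -1.92) and above it on every RasV12 cdc42 array (1.11, 0.86, 1.93 and 2.48). The difference was 16.1-fold (4.01 ± 0.34, limma adjusted p = 9.9e-07), and the level was 1.59 ± 0.48 (SD, n = 4) in RasV12 baz and 0.81 ± 0.16 (SD, n = 3) in RafGOF scrib. Both features passed the threshold under all 26 other settings, the random blocks included (adjusted p = 3.97e-05 and 0.00115).

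Downwards, FBgn0034097 and FBgn0036606 had the largest differences. FBgn0034097 was raised on every RasV12 scrib array (3.37, 3.45, 5.47 and 4.00) and lay near the reference in RasV12 cdc42 (-0.56, 0.22, 0.19 and 0.69), which is 15.3-fold lower (-3.94 ± 0.65 on the log2 scale, limma adjusted p = 0.00125). FBgn0036606 was above the reference in RasV12 scrib (0.75, 2.13, 2.11 and 1.70) and below it in RasV12 cdc42 (-2.19, -2.59, -1.56 and -1.28), 11.9-fold lower (-3.57 ± 0.31, limma adjusted p = 1.02e-06). For both the genotypes were far apart on every array. With random blocks FBgn0036606 passed (adjusted p = 0.00125) and FBgn0034097 did not (0.125), nor did the latter with equal spread (0.0521) or on arrays with tumour RNA in Cy3 (0.102). FBgn0034097 was at 1.18 ± 1.78 (SD, n = 4, from -0.10 to 3.79) in RasV12 baz and at 0.80 ± 0.88 (SD, n = 3) in RafGOF scrib. FBgn0036606 was at -1.79 ± 0.53 (SD, n = 4) in RasV12 baz and at 2.22 ± 0.09 (SD, n = 3) in RafGOF scrib.

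Of the 71 genes with a symbol 3 were higher (Eig71Ee, Ebp and Idgf3) and 1 was lower (CG12520) in RasV12 cdc42. That is 4 of 71, where 3.51% of all features passed. An unadjusted p under 0.05 was found for 11 of the 71 and for 13.3% of all features, and no overlap between the genotypes for 9 and for 8.80%. The median difference was 0.10 over the 71 genes and 0.09 over all features. For 50 of the 71 the 95% interval of the difference lay within 2-fold either way, as it did for 69.1% of all features. For 17 others the interval reached beyond 2-fold and the gene did not pass the threshold. A difference of that size was thus neither called nor excluded for them at this number of arrays. Some of these intervals left out 0, such as that of Lsp2 (0.35 to 4.12), though the adjusted p did not pass. The genes are taken in groups by their known role.

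Of 8 genes for secreted and extracellular proteins 2 passed, both upwards, and 7 had a difference above 0 (median 0.56), where 2.64% of all features passed upwards and 61.7% had a difference above 0. Idgf3 encodes a secreted chitinase-like protein of the imaginal disc growth factor family, which promotes growth of disc cells in culture. Its feature, FBgn0020414, had log2 ratios of -0.79, -0.68, -0.51 and -0.53 on the RasV12 scrib arrays and of 0.12, 0.68, 0.72 and 1.17 on the RasV12 cdc42 arrays. Every RasV12 scrib array was thus below the reference and every RasV12 cdc42 array above it. The means were -0.63 ± 0.14 and 0.67 ± 0.43 (SD, n = 4 each), a 2.46-fold difference (1.30 ± 0.27 on the log2 scale, SE, limma adjusted p = 0.00830). RasV12 baz, at 0.47 ± 0.42 (SD, n = 4), lay within 1 SD of RasV12 cdc42, and RafGOF scrib, at -0.08 ± 0.46 (SD, n = 3), stood between it and RasV12 scrib. The difference was 1.14 in replicates 1 and 2 and 1.46 in replicates 3 and 4. The call was lost without RasV12 cdc42 replicate 4 (adjusted p = 0.0551) and with random blocks (adjusted p = 0.225). The other 5 members of the family were not matched by name.

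Eig71Ee, listed on the array under its older name L71-7, belongs to a cluster of genes induced by the moulting hormone ecdysone and was the matched member of an ecdysone response list of 36 genes. It was at -2.54, -1.19, -2.58 and -2.44 in RasV12 scrib and at 1.29, -0.76, -0.55 and -0.23 in RasV12 cdc42. All 4 RasV12 scrib arrays were lower than any of RasV12 cdc42, where replicate 1 stood above the rest. The difference was 4.37-fold (2.13 ± 0.46 on the log2 scale, limma adjusted p = 0.0108) and was 2.13 in replicates 1 and 2 and 2.12 in replicates 3 and 4. In tumours with RNA in Cy5 it was 2.83 and in Cy3 1.43. The call was lost without RasV12 cdc42 replicate 1 (adjusted p = 0.0569), with quantile normalization (0.150) and with random blocks (0.355).

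Lsp2, a larval serum storage protein made by the fat body, had the largest difference of the named genes. It was at -4.40, -4.44, -4.36 and -2.49 in RasV12 scrib and at -0.46, -1.49, -2.31 and -2.49 in RasV12 cdc42, so that it was low in both and the fourth replicates met. The difference of 2.24 ± 0.90 on the log2 scale did not pass (limma adjusted p = 0.243), with a 95% interval from 0.35 to 4.12. Lsp2 varied more in RasV12 baz (SD 2.40, n = 4), which enters the shared estimate of spread, and with the 8 arrays alone its adjusted p was 0.0327. After quantile normalization the difference was 0.91. It was the matched member of 8 fat body markers, and its part in other differences was not tested.

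Swim, a secreted protein that binds the morphogen Wingless, was at -0.52, 0.33, 0.03 and -0.05 in RasV12 scrib and at 0.47, 0.83, 1.02 and 0.67 in RasV12 cdc42. The arrays did not overlap, but the difference of 0.80 ± 0.32 did not pass (limma adjusted p = 0.241), and of 26 other settings it passed in 1, the replicate block with dye term on the 8 arrays alone (0.0401). In RasV12 baz its level was 2.42 ± 0.83 (SD, n = 4). LanA, a laminin chain of the basement membrane, had a difference of 0.33 with an interval from -0.29 to 0.94. The serpin genes Spn77Bb and Spn77Bc (-0.20 and 0.11) and dyw, of the juvenile hormone binding protein family (0.15), also had intervals within 2-fold.

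**Figure D3:**
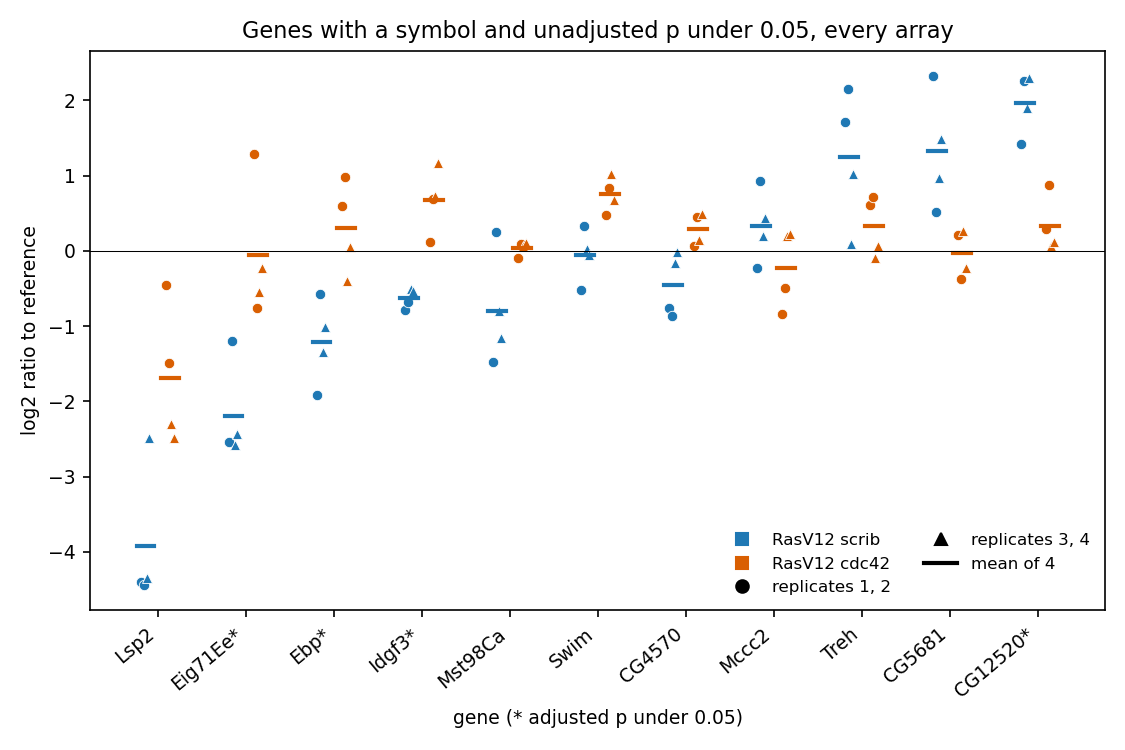
Log2 ratio to the reference on each of the 8 arrays for the 11 genes with a symbol and an unadjusted p under 0.05, with the mean of 4 as a bar; circles are replicates 1 and 2, triangles replicates 3 and 4, and a star marks an adjusted p under 0.05. The RasV12 cdc42 arrays lie above the RasV12 scrib arrays without overlap for Eig71Ee, Ebp and Idgf3 and below them for CG12520.

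Of 8 genes known from the male reproductive tract 1 passed, and 5 differences were above 0 and 3 below (median 0.09). Ebp (FBgn0004181) encodes a protein of the ejaculatory bulb. The log2 ratios of Ebp were -1.91, -0.57, -1.35 and -1.01 on the RasV12 scrib arrays and 0.60, 0.98, -0.41 and 0.05 on those of RasV12 cdc42. The genotypes did not overlap, and the nearest arrays were RasV12 scrib replicate 2 and RasV12 cdc42 replicate 3. The difference was 2.85-fold (1.51 ± 0.31 on the log2 scale, limma adjusted p = 0.00674). Within tumours labelled in Cy5 it was 2.42 and within those in Cy3 0.61, and it was 2.02 in replicates 1 and 2 and 1.0 in replicates 3 and 4. Quantile normalization (adjusted p = 0.0550) and random blocks (0.166) ended the call.

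Mst98Ca, a gene of the male germline, was at -1.48, 0.25, -0.80 and -1.16 in RasV12 scrib and between -0.09 and 0.11 in RasV12 cdc42. One RasV12 scrib array lay above the other genotype, and the difference of 0.84 ± 0.31 did not pass (limma adjusted p = 0.185). Without that array, replicate 2, it was 1.18 and passed (adjusted p = 0.0241). The sperm tubulin gene betaTub85D differed by 0.01, with means of -0.60 and -0.59. The sperm aminopeptidase genes S-Lap1, S-Lap7 and S-Lap8 and the testis genes ocn and bb8 had differences from -0.51 (ocn) to 0.33 (S-Lap7), and only the interval of ocn reached beyond 2-fold. The sources used here do not give the sex of the larvae.

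None of 14 metabolic genes passed, with differences from -0.92 to 0.71. Treh encodes trehalase, which splits the blood sugar of insects into glucose. It was at 1.71, 2.15, 0.10 and 1.02 in RasV12 scrib and at 0.61, 0.72, -0.10 and 0.07 in RasV12 cdc42. In both genotypes replicates 3 and 4 lay below replicates 1 and 2. The difference of -0.92 ± 0.37 did not pass (limma adjusted p = 0.243). With replicate number as a block it did (adjusted p = 0.0409), as it did without RasV12 scrib replicate 3 (0.0164), and with random blocks it did not (0.843).

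AMPKalpha, the catalytic subunit of the energy-sensing kinase AMPK, differed by 0.71 with an interval from -0.01 to 1.43, and SNF4Agamma, a regulatory subunit of the same kinase, by 0.04 (-0.64 to 0.73). The AMPKalpha difference was 1.79 in replicates 1 and 2 and -0.37 in replicates 3 and 4. Mccc2, of leucine breakdown, was lower by a log2 difference of -0.57 ± 0.23 that did not pass (limma adjusted p = 0.262). Ts, thymidylate synthase, was at -0.36 ± 0.38 and 0.13 ± 0.15 (SD, n = 4 each), a difference of 0.50 that did not pass (limma adjusted p = 0.463). In RafGOF scrib it was at 1.24 ± 0.16 (SD, n = 3). The mitochondrial genes ScsbetaA (0.09) and mAcon2 (-0.12) had intervals within 2-fold, as did 10 of the 14 in all.

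Neither the 7 nuclear genes nor the 5 genes of protein modification and traffic held one that passed. Among the first, Pnn, a splicing-associated protein (0.49), and Mau2, which loads cohesin (-0.52), had the largest differences, and the interval of each reached just beyond 2-fold. Prp31, a splicing factor of the spliceosome, differed by -0.32, the transcription factor CrebB by 0.09 and the Mediator subunit MED1 by 0.12. In the second group all 5 intervals lay within 2-fold. They include lwr, the SUMO-conjugating enzyme (0.01), CSN3, a subunit of the COP9 signalosome (-0.02), and the COPII coat gene Sec24CD (0.41). Herc4, of the HECT ubiquitin ligase family, was higher on every RasV12 cdc42 array (-0.22, -0.09, 0.11 and 0.36) than on any RasV12 scrib array (-0.31, -0.29, -0.44 and -0.55), but its difference of 0.44 did not pass (limma adjusted p = 0.401).

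Of the 29 other genes with a symbol CG12520 (FBgn0036324) passed, and the intervals of 21 lay within 2-fold. CG12520 was at 1.41, 2.26, 1.89 and 2.30 in RasV12 scrib and at 0.29, 0.87, 0.06 and 0.12 in RasV12 cdc42, above the reference on all 8 arrays and without overlap. The difference was 3.09-fold downwards (-1.63 ± 0.33 on the log2 scale, limma adjusted p = 0.00565), and it was -1.26 in replicates 1 and 2 and -2.003 in replicates 3 and 4. Its level was 1.60 ± 0.61 (SD, n = 4) in RasV12 baz and 0.09 ± 0.55 (SD, n = 3) in RafGOF scrib. Random blocks ended the call (adjusted p = 0.260).

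CG5681 was at 2.32, 0.51, 0.97 and 1.49 in RasV12 scrib and at 0.21, -0.38, 0.26 and -0.23 in RasV12 cdc42, again without overlap. Its difference of -1.36 ± 0.37 missed the threshold (limma adjusted p = 0.05003) and passed with replicate number as a block (0.0498) and without RasV12 scrib replicate 2 (0.0241) or 3 (0.0347). In 16 of 26 other settings it did not pass, among them random blocks (0.680) and the fits without RasV12 scrib replicate 1 (0.203) or RasV12 cdc42 replicate 2 (0.206). For CG5681, as for Eig71Ee, 1 array held a ratio of small whole numbers. CG4570 had no overlap either (0.74 ± 0.28, limma adjusted p = 0.210). For mGluR, a glutamate receptor gene, the difference was -0.38 with an interval from -1.15 to 0.40.

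**Figure D4:**
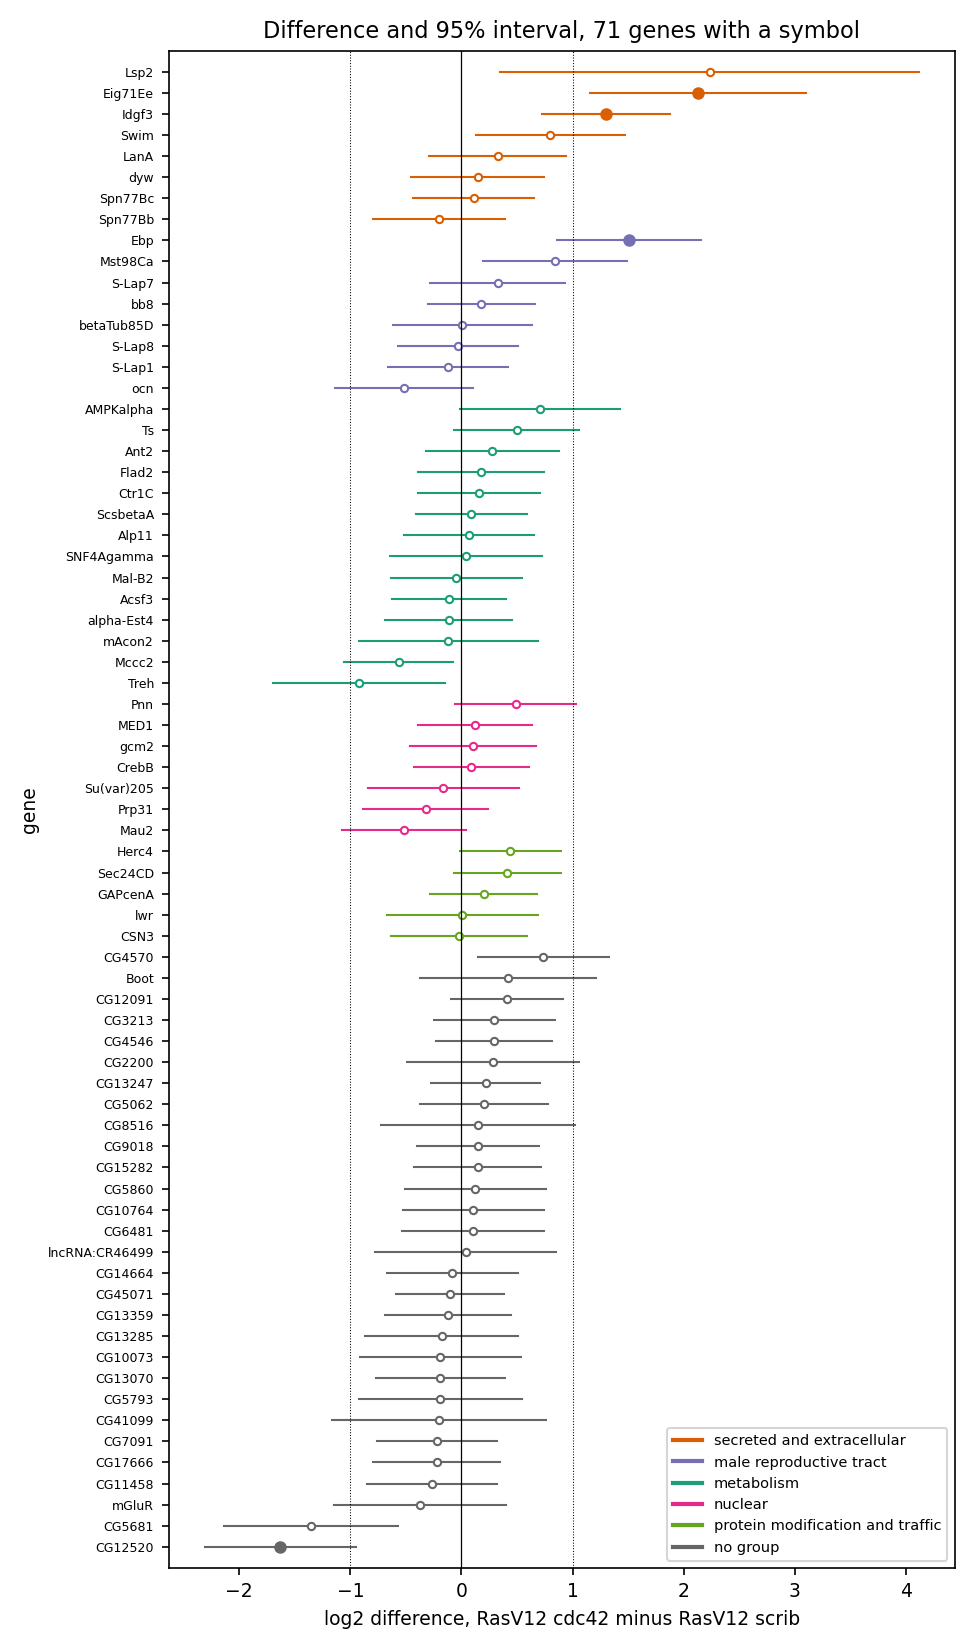
Log2 difference of RasV12 cdc42 minus RasV12 scrib (points, filled where the adjusted p was under 0.05) with its 95% interval (lines) for the 71 genes with a symbol, coloured by group; dotted lines mark 2-fold. Of the 71 intervals 50 lie between the dotted lines.

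All 393 features differed the same way in replicates 1 and 2 as in replicates 3 and 4, and 384 of them by more than 0.5 on the log2 scale in both. Agreement in both is part of what brings a feature past the threshold, so features were also followed from one pair of replicates to the other. Of 890 features at least 2-fold apart in replicates 1 and 2, 609 (68.4%) differed the same way in replicates 3 and 4, and 254 (28.5%) by at least 2-fold. Of the 60 that were at least 4-fold apart, 52 (86.7%) differed the same way and 43 by at least 2-fold. In the opposite direction 702 of 982 features (71.5%) and, at 4-fold, 116 of 129 (89.9%) differed the same way. Over all features the sign was the same in 49.9%, and the differences in the pairs correlated at r = 0.21 (Spearman's rank correlation 0.05, 11196 features, which are not independent). Differences of 4-fold thus recurred in direction more often than those of 2-fold. These differences were taken without a dye term. In RasV12 cdc42 the first pair was dye-swapped and the second was not, while each RasV12 scrib pair held a swapped and an unswapped array. A dye effect would thus enter the differences of the pairs with opposite sign, and its part in their agreement was not tested.

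**Figure D5:**
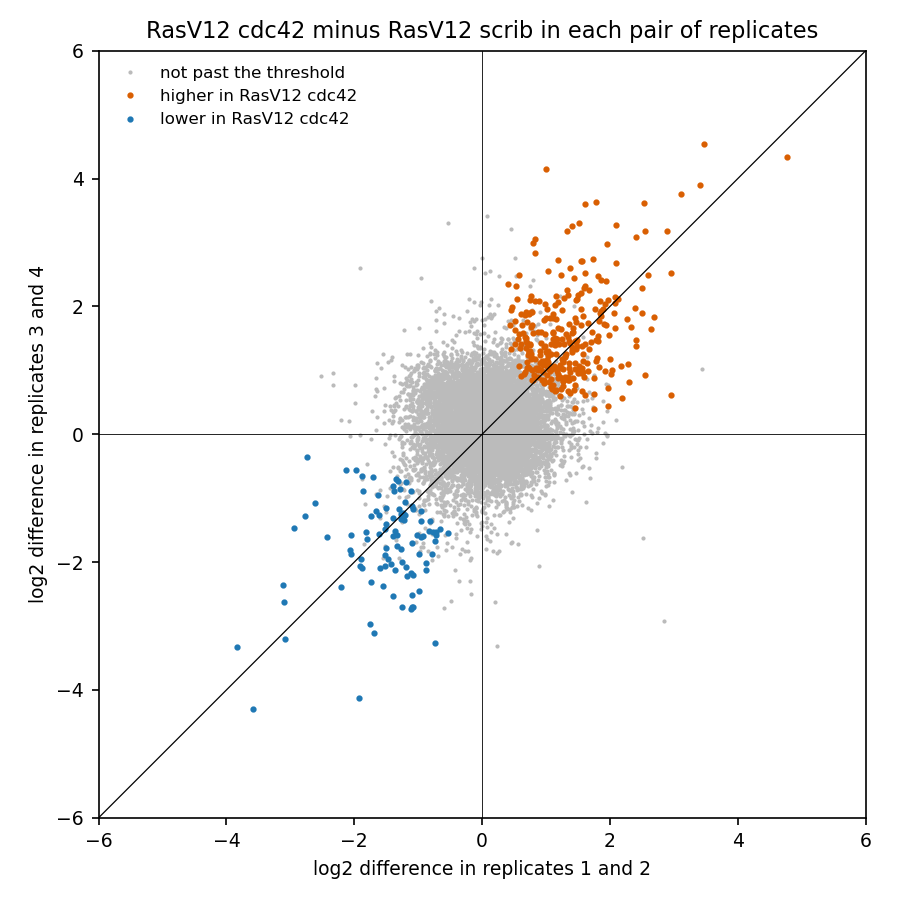
Log2 difference of RasV12 cdc42 minus RasV12 scrib in replicates 1 and 2 (x axis) and in replicates 3 and 4 (y axis), 1 point per feature, with the line of equality. The 393 coloured features, chosen on both axes, lie at the upper right and lower left, while the grey features form a cloud with little slope (r = 0.21 over all features). In RasV12 cdc42 the pairs of replicates also differ in dye.

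The replicate pairs also shifted together in both genotypes. Between replicates 3-4 and 1-2, 1589 features moved by at least 2-fold in RasV12 scrib and 1107 in RasV12 cdc42. Of these, 322 moved so in both genotypes the same way and 17 in opposite ways, and 5 of the 322 were among the 393. The shifts correlated at r = 0.34 across features. Of the 71 genes with a symbol 9 shifted by over 0.5 the same way in both genotypes, where 15.5% of all features did. CG2200 shifted by 1.56 in RasV12 scrib and 1.35 in RasV12 cdc42, CG5793 by 1.26 and 1.20, and SNF4Agamma by 1.12 and 0.82. Each of these 3 shifts was larger than the difference between the genotypes for that gene, which was 0.28, -0.19 and 0.04. In RasV12 cdc42 the pairs also differ in dye. What sets the pairs apart was not tested.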

How the data were processed

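Values came as log2 ratios that the authors deposited for all 16 arrays together, 11196 features each. Scanning, background correction, normalization and averaging are not given in the sources used here, and the arrays were not centred. Per the labels, tumour RNA was in Cy3 and reference RNA in Cy5, reversed on 2 arrays of each genotype compared. Identifiers were looked up among the symbols and synonyms that NCBI lists for Drosophila genes (Release 6): 71 features had 1 symbol, 1 had several and 11124 had none. Of 588 genes in 38 lists, 9 were matched. RafGOF scrib replicates 1 and 2, identical in 95.07% of features (any other pair, at most 0.143%), were averaged.

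Genotype means and a dye effect were estimated together by linear model from the 15 replicates (R 4.3.3, limma 3.58.1, figures with Python 3.11.15 and matplotlib 3.10.9), with empirical Bayes moderation, two-sided tests and Benjamini-Hochberg adjustment over all features. Dye was balanced in both genotypes, so it changes the error of the difference and not its value. Values are log2, with SE from the fit. The labels call the arrays biological replicates, and nothing says more of their origin. Array numbers limit precision, since signal levels were not used here.

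The main fit held no term for replicate number, so its tests are not paired. A block for replicate number was fitted as another setting. The reason was that deviations from the genotype means correlated at 0.27, 0.24, 0.21 and 0.28 for replicates 1 to 4. Some arrays of unlike number in the same replicate pair were as close (up to 0.36). Named were symbols past the threshold without overlap, list members and 2 identifiers per direction; symbols with an unadjusted p under 0.05 (among them CG5681, CG4570 and Mccc2) were added after their values were seen, and all 71 symbols are also described by role. Members, lists and role groups were chosen with earlier results of these data known.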

Additional observations from a re-analysis of the deposited data

Results flagged for a closer look

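In 36 groups of 4 arrays (18 features in both genotypes), Dixon's test set 1 array apart from the others in 3, where chance gives about 1 in 20. Lsp2 in RasV12 scrib replicate 4 was at -2.49, against -4.44 to -4.36 on the other arrays, and without that array the log2 difference was 2.86 (limma adjusted p = 0.151). Eig71Ee in RasV12 scrib replicate 2 was at -1.19, against -2.58 to -2.44, and without it the difference was 2.52 (limma adjusted p = 0.00477). Ts in RasV12 cdc42 replicate 1 was at 0.361, against 0.0459 to 0.0708 on the other arrays.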

How the results depend on the processing

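The comparison was refitted under 26 other settings, 2 of them added after seeing the data. All 26 gave calls, and 14 of the 393 features passed in every one, while 313 passed in at least 13. With replicate number as a block on all arrays, 367 features passed, 340 of them among the 393. A block on the 8 arrays alone gave 478 without and 751 with the dye term (the 2 added settings). The count was 132 with arrays scaled to equal spread, 129 on arrays with tumour RNA in Cy3 and 44 on those in Cy5. It was 52 with replicates 1-2 and 3-4 as random blocks (correlation 0.566), 89 when a difference above 0.5 was tested and 591 with array weights. That last fit stopped before convergence and gave RasV12 cdc42 replicate 1 a weight of 27.8. Leaving out 1 replicate of either genotype gave 227 to 451 features. No value of the 18 features followed changed sign while passing the threshold. Calls were lost in 3 (CG12520), 3 (FBgn0034097), 5 (Ebp), 5 (Idgf3) and 7 (Eig71Ee) of the 26 settings, random blocks among them each time. The share of features farther from the reference in RasV12 scrib was 83.2% of the 393 on the deposited scale. It was 57.6% of the 132 that passed with equal spread, a value added after seeing the data. For the 393 features themselves it was 82.7% with equal spread. Why the sets differed was not tested. The replicate block on all arrays changed the calls of Treh and CG5681 and no other of these 18.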
